A study of Mus musculus with 6 samples.

Results

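The 9 genes described here encode myosin light chains: Myl2, Myl3, Myl4 and Myl7 of heart muscle, Myl1 and Mylpf of fast skeletal muscle, and Myl6, Myl6b and Myl9 of non-muscle and smooth muscle cells. They were taken by gene name from a table of 56359 rows, and each name matched 1 row. The family was chosen from earlier results of these same samples, in which heart light chains stood among the largest differences between the genotypes. The difference between genotypes in these 9 genes is therefore given as a description. Counts of members past a threshold are printed beside the share over all genes and support nothing. The samples are mouse embryos of strain C57BL/6 at embryonic day 12, 3 wild type and 3 Tmem216-/-. Tmem216 encodes a transmembrane protein at the base of the primary cilium, where it helps control which proteins enter. The labels call the source embryo and give neither the part of the embryo taken nor whether the heart was included. Nor do they state if the 3 samples of a genotype come from different embryos, so p-values reflect only the spread among these libraries, some of which may be technical.

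Myosin heavy chains carry an essential and a regulatory light chain on the lever arm of each head. Essential chains stiffen the lever, and regulatory chains tune contraction through phosphorylation by myosin light chain kinases. Each muscle type uses its own set. Myl7 (regulatory) marks the atria and is also made in the early heart tube, and Myl2 (regulatory) marks the ventricle. Myl3 is the essential chain of the ventricle and of slow skeletal fibres, while Myl4 is the essential chain of the atria and of embryonic muscle, heart and skeletal alike. Mylpf (regulatory) and Myl1 (essential) serve fast skeletal fibres, and Myl6 (essential) and Myl9 (regulatory) serve smooth muscle and non-muscle myosin. Myl6b is an essential chain related to Myl6.

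The genes are related in sequence. Coding sequences from GENCODE vM21 (GRCm38, the assembly also called mm10) were 54.6% to 73.2% identical over 16 pairs of the same chain type and 45.4% to 50.3% over 20 pairs of a regulatory with an essential chain. Myl3 and Myl4, the essential chains of the heart, were the closest pair. The most conserved stretch of 60 coding bases of each type is shown because it is the part that all members of a type share most. Capitals mark the bases that are identical in all members of that type, and positions count from the A of the start codon. In the regulatory chains 43 of 60 bases were identical, at positions 41 to 100 of Myl2, 65 to 124 of Myl7, 44 to 103 of Mylpf and 56 to 115 of Myl9.
Myl2: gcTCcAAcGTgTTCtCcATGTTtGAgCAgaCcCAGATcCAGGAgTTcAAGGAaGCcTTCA
Myl7: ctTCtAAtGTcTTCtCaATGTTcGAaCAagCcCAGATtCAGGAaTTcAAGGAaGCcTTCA
Mylpf: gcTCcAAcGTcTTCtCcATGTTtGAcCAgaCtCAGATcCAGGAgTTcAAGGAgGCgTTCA
Myl9: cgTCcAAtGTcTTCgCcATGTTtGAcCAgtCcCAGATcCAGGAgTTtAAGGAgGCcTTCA
In the essential chains 41 of 60 bases were identical, at positions 418 to 477 of Myl3, 385 to 444 of Myl4, 370 to 429 of Myl1, 259 to 318 of Myl6 and 427 to 486 of Myl6b.
Myl3: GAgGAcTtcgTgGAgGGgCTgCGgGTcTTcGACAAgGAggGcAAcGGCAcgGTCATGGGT
Myl4: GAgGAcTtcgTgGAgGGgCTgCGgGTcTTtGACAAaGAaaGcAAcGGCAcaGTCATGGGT
Myl1: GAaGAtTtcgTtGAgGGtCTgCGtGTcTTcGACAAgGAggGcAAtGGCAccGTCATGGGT
Myl6: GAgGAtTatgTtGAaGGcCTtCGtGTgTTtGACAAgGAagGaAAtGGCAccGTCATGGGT
Myl6b: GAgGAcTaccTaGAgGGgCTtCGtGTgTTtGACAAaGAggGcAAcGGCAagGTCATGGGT

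The differences are scattered through each stretch. The longest run of identical bases between transcripts was 20 for Myl2 with Mylpf, 16 for Myl2 with Myl7, 29 for Myl3 with Myl4, 25 for Myl4 with Myl1 and 46 for Myl6 with Myl6b. A search of all annotated mouse transcripts for stretches of at least 100 bases at 95% identity or more found no other gene for Myl2, Myl3, Myl4, Myl7, Myl6b, Myl9 or Mylpf. It found 5 other genes for Myl6, at most 3.20 TPM in any sample, and the processed pseudogene Mylf-ps for Myl1, which is listed at 0 in all 6 samples. Reads of these genes and of Myl6 or Myl1 may not be told apart.

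RefSeq promoter windows for GRCm38.p6, from 250 bases before to 50 bases after each start site, were searched on both strands for 4 motifs: the CArG box (bound by serum response factor), the MEF2 site (bound by muscle MEF2 factors), GATAA and the E-box CANNTG. CArG boxes were in 4 of 11 member windows, against 1.63% of 32851 windows of all genes. They lay in the windows of Myl7, Myl3 and Myl9, and in one of the windows of Myl6. GATAA was in 4 of the 11 (25.4% of all windows), the E-box in 9 (72.3%) and the MEF2 site in 0 (3.19%). The windows of Myl7, Myl3 and Myl9 are printed because these 3 genes have a CArG box and do not overlap between the genotypes. This choice uses the outcome and leaves out Myl6. No link between the CArG box and the genotype difference is read from it or from the count. Capitals mark the CArG box, at -61 to -52 in Myl7, -85 to -76 in Myl3 and -161 to -152 in Myl9 from the start site at 0, and GATAA, at -41 to -37 in Myl7 and -18 to -14 in Myl3. Myl9 was added to the heart genes after its values were seen.
Myl7, chr11:5898733-5899032, minus strand: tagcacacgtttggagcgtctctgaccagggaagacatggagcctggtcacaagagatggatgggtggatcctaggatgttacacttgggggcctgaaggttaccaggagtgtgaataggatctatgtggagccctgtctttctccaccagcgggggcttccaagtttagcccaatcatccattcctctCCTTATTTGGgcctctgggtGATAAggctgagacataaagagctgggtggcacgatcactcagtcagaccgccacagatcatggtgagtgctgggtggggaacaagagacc
Myl3, chr9:110763428-110763727, plus strand: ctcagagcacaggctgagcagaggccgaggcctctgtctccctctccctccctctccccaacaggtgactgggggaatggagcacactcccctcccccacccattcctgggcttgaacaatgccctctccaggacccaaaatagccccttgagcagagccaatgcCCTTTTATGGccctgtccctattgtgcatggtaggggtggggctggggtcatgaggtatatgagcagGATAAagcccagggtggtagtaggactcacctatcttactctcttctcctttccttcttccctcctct
Myl9, chr2:156775214-156775513, plus strand: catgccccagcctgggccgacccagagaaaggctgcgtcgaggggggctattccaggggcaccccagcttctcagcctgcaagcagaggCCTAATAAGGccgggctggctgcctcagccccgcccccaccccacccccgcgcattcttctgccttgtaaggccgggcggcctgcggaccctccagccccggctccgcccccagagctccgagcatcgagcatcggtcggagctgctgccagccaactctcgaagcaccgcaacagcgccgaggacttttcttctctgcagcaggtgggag

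In Myl7 the CArG box (-61 to -52) and GATAA (-41 to -37) are near each other. In Myl3 they lie farther apart (-85 to -76 and -18 to -14). GATAA is in 25.4% of all windows, so nothing is read from its presence beside a CArG box. The windows given for Myl2 begin at RefSeq starts at least 7794 bases upstream of the start of the GENCODE transcript, and the Myl4 window at a start 26322 bases upstream, so they are not printed. A motif here is a match of letters, and the samples hold no measurement of binding. The CArG box of Myl6, whose level was close to equal in the genotypes, stands at a second, downstream start of that gene.

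Depth is unknown, since the deposited values are TPM (abundance scaled by transcript length and by the library total, so that genes can be compared within a sample). Tmem216 was 17.4 to 31.0 TPM in wild type and 0.51 to 2.25 TPM in Tmem216-/- and fell (log2 fold change -3.55, limma adjusted p = 0.0266). In fits that left out wild type replicate 1, 0 genes passed in limma (505 at an unadjusted p below 0.05). In fits that left out wild type replicate 3 or else Tmem216-/- replicate 3, 0 genes passed higher (1262 and 425 in either direction at an unadjusted p below 0.05), so each call for a higher gene given below is lost in these 3 fits. Log2 fold changes are differences of mean log2(TPM + 1), Tmem216-/- minus wild type, from limma over 16411 genes, with a moderated standard error (SE). With all 6 samples, 732 of these 16411 genes had an unadjusted p below 0.05 in limma. By Y-linked genes 2 of 3 wild type and 1 of 3 Tmem216-/- samples were male, so the samples of a genotype were not all from a single embryo. Whether samples of the same sex came from different embryos is unknown. Summed levels of 7 liver genes ran from 184 to 2098 TPM in wild type and from 91.7 to 867 TPM in Tmem216-/-. In bulk tissue, fewer cells of a type and less RNA per cell cannot be told apart.

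The heart regulatory chains showed the widest separation. Myl7 (ENSMUSG00000020469, chromosome 11, 5896637 to 5898782, 7 exons) had levels of 1.91, 4.91 and 2.04 TPM in wild type replicates 1, 2 and 3. In Tmem216-/- replicates 1, 2 and 3 they were 151, 436 and 270 TPM. Each Tmem216-/- sample was far above each wild type sample, and the lowest of them was 30.7 times the highest wild type value. The log2 fold change was 6.13 (SE 0.43), rank 1 of the 16411 genes. Myl2 (ENSMUSG00000013936, chromosome 5, 122100951 to 122113472, 8 exons) stood at 7.06, 4.02 and 2.23 TPM in wild type, against 177, 568 and 335 in the Tmem216-/- samples. Its groups did not overlap either, with 25.1 times between the nearest values and a log2 fold change of 6.00 (SE 0.48). The atrial and the ventricular regulatory chain were thus high in the same 3 samples, and in the same order among them.

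The heart essential chains were high in the same samples, but started from different wild type levels. Myl3 (ENSMUSG00000059741, chromosome 9, 110741861 to 110769798) stood at 2.25, 3.97 and 0.75 TPM in wild type, against 67.5, 219 and 135 in the Tmem216-/- samples, a log2 fold change of 5.38 (SE 0.52). Myl4 (ENSMUSG00000061086, chromosome 11, 104550663 to 104595753) stood at 30.6, 55.4 and 40.8 TPM in wild type, against 189, 388 and 280 in the Tmem216-/- samples. For Myl4 the nearest values of the groups were 3.40 times apart and the log2 fold change was 2.71 (SE 0.31). The wild type level of Myl4 was several times that of the other heart genes, while in Tmem216-/- Myl4 and Myl7 had nearly the same mean, 286 ± 99.6 and 286 ± 143 TPM (SD, n = 3).

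**Figure D1:**
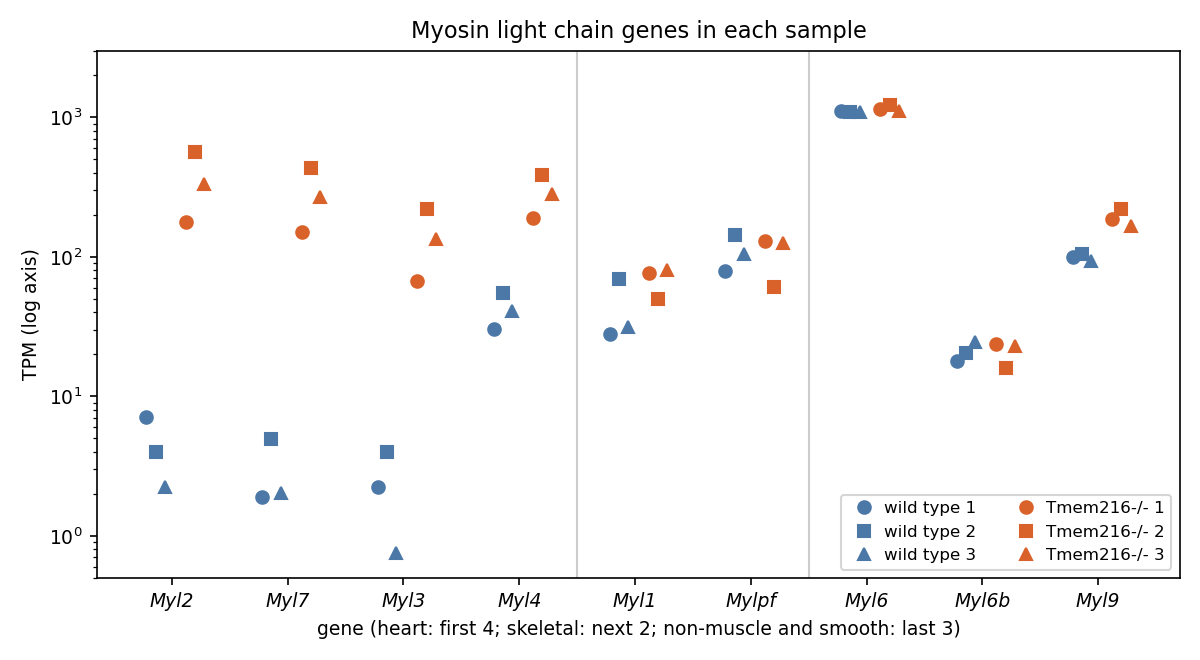
TPM on a log axis of each light chain gene in the 3 wild type (blue) and 3 Tmem216-/- (orange) samples, with the replicate number given by the symbol. Myl2, Myl7, Myl3, Myl4 and Myl9 show no overlap between genotypes, and the Tmem216-/- values of Myl7 run from 151 to 436 TPM against at most 4.91 TPM in wild type.

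Skeletal muscle light chains overlapped between the genotypes. Mylpf (ENSMUSG00000030672, chromosome 7, 127208890 to 127214298) stood at 79.1, 143 and 106 TPM in wild type, against 129, 61.2 and 125 in the Tmem216-/- samples (log2 fold change -0.09, SE 0.34). The highest value was in wild type replicate 2 and the lowest in Tmem216-/- replicate 2. Myl1 (ENSMUSG00000061816, chromosome 1, 66924295 to 66945404) stood at 28.1, 69.3 and 31.2 TPM in wild type, against 76.1, 50.03 and 79.9 in the Tmem216-/- samples (0.76, SE 0.36). For Myl1, wild type replicate 2 lay among the Tmem216-/- samples and the other two wild type samples below them.

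The non-muscle and smooth muscle chains differed among themselves. Myl6 (ENSMUSG00000090841, chromosome 10, 128490860 to 128494145) had the highest level of the family, 1116, 1096 and 1099 TPM in wild type, against 1148, 1232 and 1111 in the Tmem216-/- samples (log2 fold change 0.07, SE 0.08). Its coefficient of variation was 0.98% within wild type and 5.35% within Tmem216-/-. Myl6b, its neighbour on the same strand (ENSMUSG00000039824, chromosome 10, 128494157 to 128498685), was 17.8, 20.5 and 24.7 TPM and 23.8, 15.9 and 23.0 TPM (-0.02, SE 0.19). Both genes overlapped between the genotypes.

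Myl9, the smooth muscle regulatory chain (ENSMUSG00000067818, chromosome 2, 156775420 to 156781658, 4 exons), did not overlap. It was 100.1, 105 and 93.0 TPM in wild type, against 186, 222 and 166 in the Tmem216-/- samples, or 99.5 ± 6.14 and 191 ± 28.1 TPM (SD, n = 3), a log2 fold change of 0.93 (SE 0.12). The step was close to a doubling, far smaller than that of the heart genes, but the wild type samples were closer together, with a coefficient of variation of 6.18% against 55.0% for Myl2. The highest Tmem216-/- value of Myl9 was again in replicate 2.

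In all, 3 of the 9 members were past an adjusted p of 0.05 in limma, each of them higher (Myl2, Myl3 and Myl7), against 0.0975% of the 16411 tested genes called higher and 0.00609% called lower. The groups did not overlap for 5 of 9, each higher in Tmem216-/-, against 4.75% of tested genes higher and 4.83% lower. Because the family was chosen with this contrast known, nothing is read from these counts. The median log2 fold change was 5.69 for the 4 heart genes, 0.33 for the 2 skeletal genes and 0.07 for Myl6, Myl6b and Myl9, and the median of all tested genes was -0.01. The count of 3 falls to 0 without wild type replicate 1, wild type replicate 3 or Tmem216-/- replicate 3, and to 1 (Myl7) without Tmem216-/- replicate 2. In the 3 fits with 0, an unadjusted p below 0.05 was found for 5 members, beside 505, 1262 and 425 of all genes tested, and nothing is read from this count either. The heart median lay between 5.29 and 6.13 with each sample left out in turn.

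**Figure D2:**
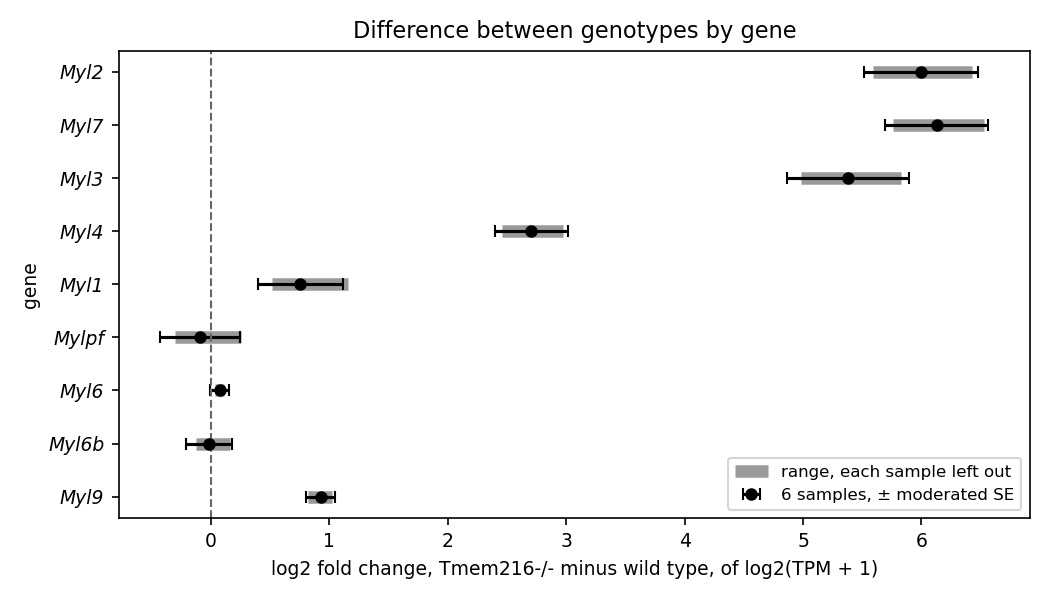
Log2 fold change of each gene, Tmem216-/- minus wild type, on the log2(TPM + 1) scale, with the moderated SE as error bar and the range over 6 fits that each leave out 1 sample as grey band. The heart genes lie between 2.71 and 6.13, Myl9 at 0.93, and the bands of Mylpf and Myl6b include 0.

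The order of levels in the family differed between the genotypes. In wild type the order by mean was Myl6, Mylpf, Myl9, Myl1, Myl4, Myl6b, Myl2, Myl7 and Myl3, where the ranges of Mylpf and Myl9, of Myl1 and Myl4, and of neighbours among Myl2, Myl7 and Myl3 overlapped. In Tmem216-/- it was Myl6, Myl2, Myl7, Myl4, Myl9, Myl3, Mylpf, Myl1 and Myl6b, and the ranges of all neighbours from Myl2 to Myl1 overlapped. Myl6 stood above all others in both genotypes. Myl6b stood above Myl2, Myl7 and Myl3 in wild type and below all others in Tmem216-/-.

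Heart genes made up a small share of the light chain signal in wild type and a large one in Tmem216-/-. Their part of the summed TPM of the 9 genes was 3.02%, 4.54% and 3.27% in wild type and 27.2%, 50.5% and 40.4% in Tmem216-/-. In wild type most of the heart sum was Myl4, at 30.6, 55.4 and 40.8 of 41.8, 68.3 and 45.8 TPM. Myl4 is also a chain of embryonic skeletal muscle, so the wild type share need not come from heart. The summed level of the 9 genes was 1429 ± 64.8 TPM in wild type and 2621 ± 529 TPM in Tmem216-/- (SD, n = 3). The part of Myl6, Myl6b and Myl9 was lower, 81.3% to 89.2% in wild type and 46.1% to 63.2% in Tmem216-/-, although their summed level was 1224 ± 8.81 and 1376 ± 86.4 TPM. The share of the skeletal genes was 7.75% to 14.2% in wild type and 3.49% to 9.57% in Tmem216-/-, so it overlapped.

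**Figure D3:**
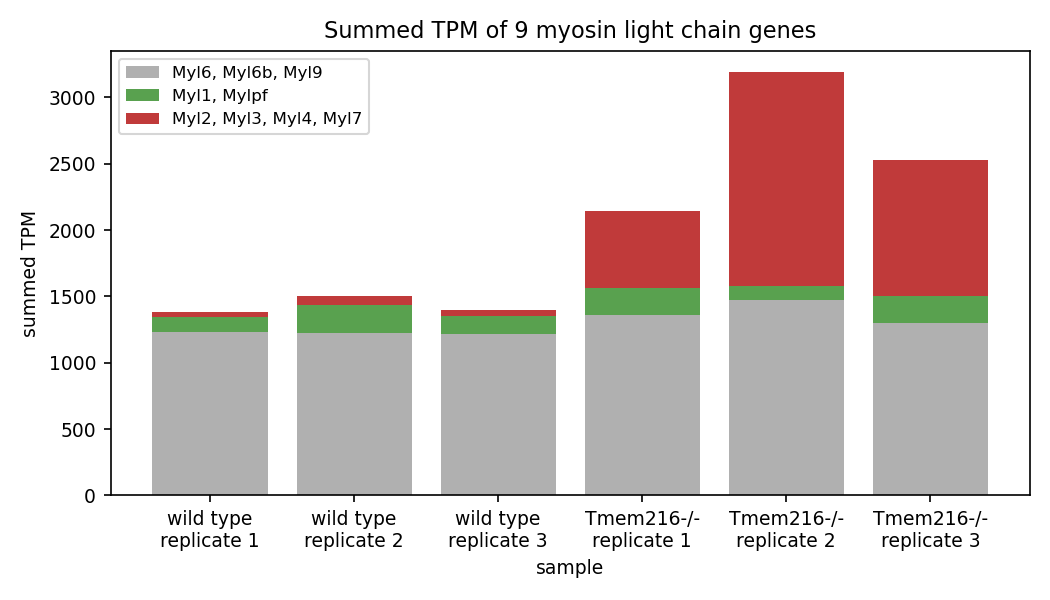
Summed TPM of the 9 light chain genes in each sample, stacked by class. The grey part (Myl6, Myl6b, Myl9) stays between 1217 and 1470 TPM. The red part (Myl2, Myl3, Myl4, Myl7) grows from at most 68.3 TPM in wild type to between 584 and 1610 TPM in Tmem216-/-. In wild type most of the red part is Myl4.

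Ratios within a sample do not depend on its scaling. Within Tmem216-/- Myl2, Myl3 and Myl7 kept nearly fixed proportions, although their levels differed 2.89- to 3.24-fold between samples. Myl3 to Myl2 was 0.381, 0.385 and 0.402, and Myl7 to Myl2 was 0.851, 0.768 and 0.805. In wild type, at a few TPM, the same ratios ran from 0.319 to 0.988 and from 0.271 to 1.22. Myl7 was slightly below Myl2 in each of the 3 Tmem216-/- samples.

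The ratios of Myl4 to a skeletal and to an atrial chain differed between the genotypes. In wild type the ratio of Myl4 to Mylpf was 0.387, 0.386 and 0.387 in replicates 1, 2 and 3, while both genes differed 1.81-fold between these samples. In Tmem216-/- it was 1.46, 6.33 and 2.25. The ratio of Myl4 to Myl7 was 16.0, 11.3 and 20.0 in wild type and 1.25, 0.889 and 1.04 in Tmem216-/-. Myl4 thus kept a fixed proportion to Mylpf in the wild type samples and was close to Myl7 in the Tmem216-/- samples. The pair Myl4 and Mylpf was chosen after its values were seen. Mylpf to Myl1, the regulatory and essential chains of fast fibres, was 2.81, 2.07 and 3.38 in wild type and 1.70, 1.22 and 1.56 in Tmem216-/-, which did not overlap.

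**Figure D4:**
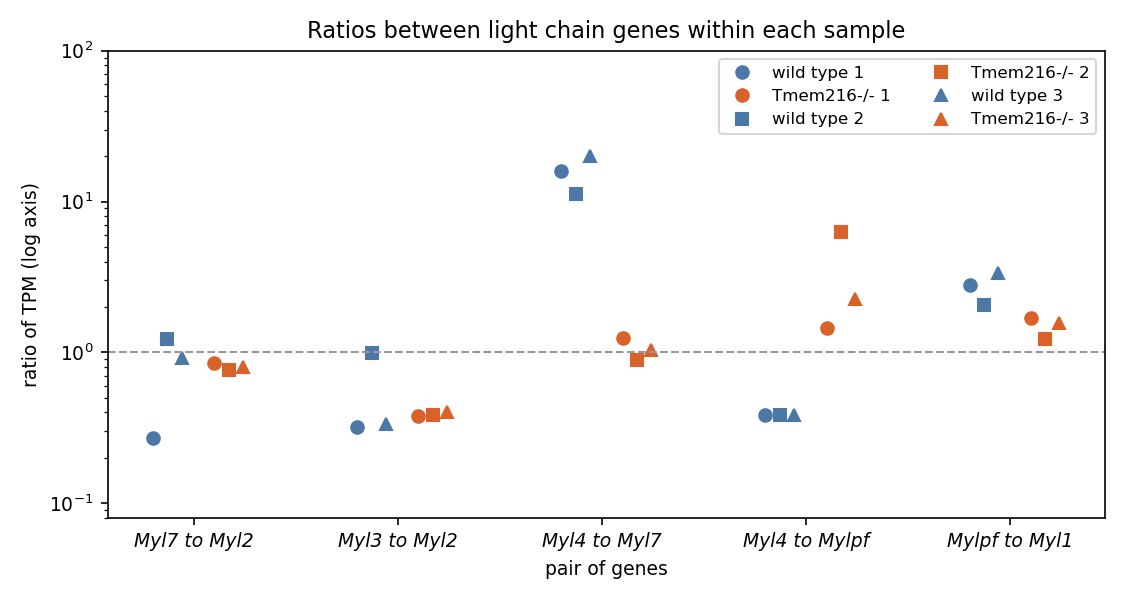
Ratio of TPM between pairs of light chain genes within each sample, on a log axis, with wild type in blue and Tmem216-/- in orange. Wild type points for Myl4 to Mylpf coincide near 0.387, and the Tmem216-/- points for Myl7 to Myl2 and Myl3 to Myl2 are tightly grouped while those of wild type are spread.

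Within Tmem216-/-, replicate 2 was high for the heart members and low for the skeletal members. All 4 heart genes were highest in replicate 2 and lowest in replicate 1. Replicate 2 was the lowest Tmem216-/- sample for Myl1, Mylpf and Myl6b and the highest for the other 6 genes. Within wild type, replicate 2 was the highest for 6 of the 9 genes, among them Myl4, Myl1 and Mylpf, but Myl2 was highest in replicate 1.

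Genes with the most similar pattern were taken as those with the smallest root mean square difference of log2(TPM + 1), after centring each gene, over the 6 samples and 13714 named genes outside the family. For Myl2 and for Myl7 the closest were Nppa (atrial natriuretic peptide), Mybpc3 (cardiac myosin binding protein), Nppb, Ankrd1 and Myh7 (slow and cardiac myosin heavy chain), with differences from 0.46 for Nppa and Myl2 to 1.15 for Myh7 and Myl7. Nppa was 5.02, 0.83 and 1.35 TPM in wild type and, like Myl2, highest in replicate 1 there. For Myl4 they were Tnnt2 (cardiac troponin T, 0.25), Sh3bgr, Cox6a2 (a muscle cytochrome c oxidase subunit), Adprhl1 and Tnni3 (cardiac troponin I). These are descriptions of pattern over 6 samples. Mybpc3, Nppb and Adprhl1 reached 1 TPM only in Tmem216-/-, so they entered the comparison through that group alone.

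Mylpf was closest to genes of skeletal muscle. They were Tnnc2 (fast troponin C, 0.11), Mylk4, Hfe2, Myh3 (embryonic myosin heavy chain) and Myom3. Mylk4, a member of the light chain kinase family, was 1.57, 3.34 and 2.5 TPM in wild type, against 3.36, 1.27 and 2.61 in the Tmem216-/- samples, in the same order as Mylpf in each genotype. Myl1 was closest to Ccdc141, Cep162, Ulbp1, Asah2 and Zfp970 (0.15 to 0.25), and Myl9 to Coro6, Lpar3, Tpm1 (tropomyosin of muscle and non-muscle cells), Fhl2 and Spon2 (0.12 to 0.15). Tpm1 was 374 to 423 TPM in wild type and 598 to 692 TPM in Tmem216-/-. Coro6 and Lpar3 were at 0.40 to 0.61 and 0.44 to 0.67 TPM in wild type. Both reached 1 TPM only in Tmem216-/-, so they entered the comparison through that group alone. Adding 1 before the log shrinks differences at levels of a few TPM or less, so likeness to such genes is not likeness in fold change.

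Most of the other heart muscle genes listed were high in the same samples as the heart light chains. A list of 16 heart muscle genes outside the family summed to 67.2 to 93.6 TPM in wild type and 438 to 934 TPM in Tmem216-/-, highest in replicate 2. Of the 16, 15 were higher without overlap, against 4.75% of tested genes, and Hand2 overlapped (28.2 ± 1.38 and 25.9 ± 9.94 TPM). In limma 8 passed higher, against 0.0975% of tested genes. Of these 8, Nppb, Mybpc3 and Pln reached 1 TPM only in Tmem216-/-, so they entered the test through that group alone. The list was chosen with earlier results known, so nothing is read from these counts. Of 18 skeletal muscle genes, 17 were tested and 0 passed in limma (1 gene at an unadjusted p below 0.05, Des, which heart and smooth muscle also make). Their sums overlapped, at 201 to 365 and 267 to 406 TPM. The 10 smooth muscle genes, several of which the embryonic heart also makes, summed to 142 to 178 TPM and 260 to 314 TPM. Of the 9 tested 0 passed in limma and 5 had an unadjusted p below 0.05, beside 732 of all 16411 tested genes. Among the 5, p was smallest for Tagln (log2 fold change 1.15, limma adjusted p = 0.149) and Cnn1 (2.58, limma adjusted p = 0.149). Lmod1, another of the 5, reached 1 TPM only in Tmem216-/-, so it entered the test through that group alone. Nothing is read from this count either.

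Markers of heart chambers outside the light chains were less uniform. Several had high means in wild type, such as Nr2f1 (116 TPM), Lbh (83.7 TPM), Nr2f2 (59.6 TPM) and Mycn (36.4 TPM). Which cells made them is unknown, so these lists cannot say if chamber genes of the heart followed the light chains. Of 7 atrial genes 0 passed in limma, and 1 had an unadjusted p below 0.05, Bmp10 (a growth factor of the atria and early trabeculae, 0.29 ± 0.25 and 2.34 ± 0.66 TPM). Of 7 ventricular genes 1 passed higher, against 0.0975% of all tested genes. It was Pln (also among the 16 heart muscle genes, a regulator of the calcium pump, log2 fold change 3.28, limma adjusted p = 0.0395). An unadjusted p below 0.05 was found for 2, Pln and Kcne1 (0.12 ± 0.19 and 1.28 ± 0.11 TPM, limma adjusted p = 0.292). Irx4, a ventricular transcription factor gene, overlapped, at 3.89 ± 1.60 and 5.23 ± 0.29 TPM. Bmp10, Pln and Kcne1 reached 1 TPM only in Tmem216-/-, so they entered the test through that group alone. In each of the 2 lists the groups did not overlap for 2 of 7 genes, each higher, against 4.75% of tested genes higher. Of 8 genes made by endocardium or epicardium, among other tissues, 8 had a log2 fold change above 0. In mean TPM, Tcf21 and Aldh1a2 were not higher. In limma 0 of the 8 passed and 3 had an unadjusted p below 0.05, beside 732 of all 16411 tested genes. Liver, blood and neural lists had 0 of 7, 0 of 7 and 0 of 8 genes past the limma threshold, and 0, 1 and 1 at an unadjusted p below 0.05. All 7 liver genes had a log2 fold change below 0 (median -1.91), but each overlapped between the genotypes and most varied widely within them. Afp was 669, 1228 and 11.3 TPM in wild type, against 480, 0.47 and 3.07 in the Tmem216-/- samples. Of the blood genes 4 were higher and 3 lower, and of the neural genes 4 and 4. Blood genes summed to 25670 to 29457 TPM in wild type and 20703 to 43244 TPM in Tmem216-/-, and neural genes to 1008 to 2015 and 1298 to 1499 TPM. No gene of these lists was under 0.5 TPM in every sample. The part of cell makeup in the light chain differences was not tested.

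**Figure D5:**
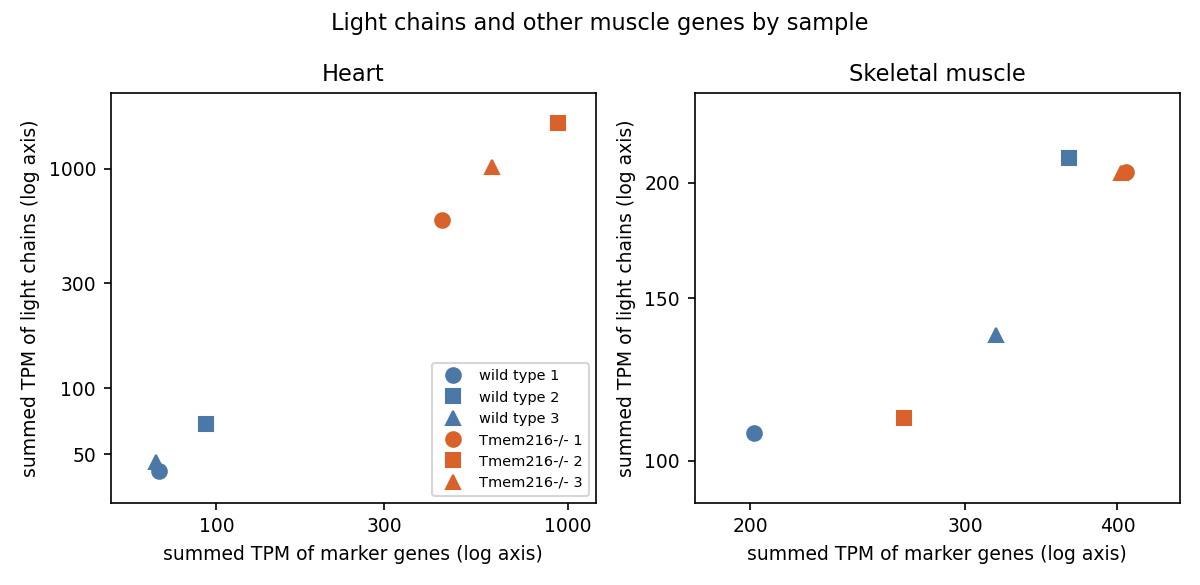
Summed TPM of heart light chains against 16 other heart muscle genes (left) and of skeletal light chains against 18 other skeletal muscle genes (right), on log axes, 1 point per sample. On the left the Tmem216-/- samples lie apart from wild type on both axes, and on the right the genotypes are mixed.

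Cardiac heavy chains, the partners of the heart light chains, were higher in the same samples. Of 14 genes 9 were tested, and Myh6 and Myh7, the cardiac heavy chains, passed the limma test higher, against 0.104% of all tested genes called in either direction. Myh6 was 3.75, 5.59 and 3.54 TPM in wild type, against 57.8, 106 and 71.8 in the Tmem216-/- samples (log2 fold change 3.88, SE 0.25, limma adjusted p = 0.0174). Both calls are lost without wild type replicate 1, wild type replicate 3 or Tmem216-/- replicate 3, where 2 heavy chains had an unadjusted p below 0.05. The embryonic skeletal chain Myh3 was 19.2, 37.8 and 30.1 TPM in wild type, against 41.4, 14.6 and 34.0 in the Tmem216-/- samples, with the order of Mylpf in each genotype. The non-muscle chain Myh10 was 210 ± 4.97 and 230 ± 1.84 TPM (0.13, limma adjusted p = 0.983), and Myh1, Myh2, Myh4, Myh13 and Myh15 stayed under 0.5 TPM in each sample.

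Genes that act on light chains did not pass the test. Of 24 kinases, phosphatase subunits and other regulators 23 were tested, 13 were higher, 10 lower and 0 passed in limma. An unadjusted p below 0.05 was found for 2, beside 732 of all 16411 tested genes. The list had a median log2 fold change of 0.04. The 2 genes were Ppp1r14c, an inhibitor subunit for protein phosphatase (4.82 ± 0.99 and 9.07 ± 1.49 TPM, 0.80, limma adjusted p = 0.592), and Mylk3, the cardiac light chain kinase. Mylk3 was 5.78, 6.08 and 2.16 TPM in wild type, against 14.7, 6.09 and 11.1 in the Tmem216-/- samples (log2 fold change 1.05, SE 0.41, limma adjusted p = 0.983). Its lowest Tmem216-/- value, in replicate 2 where Myl2 and Myl7 were highest, was level with the highest wild type value. The skeletal kinase Mylk2 was at most 0.05 TPM in any sample, and the smooth muscle kinase Mylk was 6.52 to 9.60 and 7.24 to 11.5 TPM.

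Other regulatory light chains of non-muscle cells were also compared. Myl12a was 210 to 247 TPM in wild type and 256 to 287 TPM in Tmem216-/- (log2 fold change 0.24, SE 0.09, limma adjusted p = 0.983), without overlap. Myl12b has 2 rows under the same name, and how reads were divided between them was not examined. The row with the lower level was 182 to 223 TPM in wild type and 134 to 177 TPM in Tmem216-/-, without overlap and in the direction opposite to Myl12a (log2 fold change -0.42, limma adjusted p = 0.983). The sum of both rows was 680 ± 61.0 and 634 ± 24.5 TPM. Neither Myl12a nor either Myl12b row passed in limma. Myl12a and the lower Myl12b row had an unadjusted p below 0.05 (limma, 0.0373 and 0.0203), in opposite directions. Of all 16411 tested genes, 732 had an unadjusted p below 0.05. Myl10 is listed at 0 in all 6 samples.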

How the data were processed

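The authors deposited TPM per gene for 6 libraries of total RNA. Per the submitters' processing notes, CASAVA 1.8, HISAT2, StringTie and RSEM were used with mm10. Read numbers are unknown, and no count model was used. Genes had to reach 1 TPM in 3 or more libraries, which left 16411 of 56359 rows, all 9 members among them. Values were log2(TPM + 1), and limma 3.58.1 (two-sided, a linear model with trended empirical Bayes, R 4.3.3) compared the genotypes, with Benjamini-Hochberg adjustment over all tested genes and a threshold of 0.05. The limma fit was tested on simulated data with known changes, and the other steps were not. A fold change on this scale understates the change of genes near 0. The members and gene lists were chosen with earlier results of these data known. Named genes are the members, Tmem216, up to 4 genes of each list with the smallest p, and 5 genes most like each of 6 members. Any other gene was picked after seeing its values. Alternatives covered pseudocounts of 0.1 and 5, the filter left out or raised to 5 TPM, scaling by median of ratios or quantiles, robust eBayes, eBayes without a trend, a replicate block, a sex covariate, and each sample left out. Promoters are from RefSeq (GRCm38.p6) and coding sequences from GENCODE vM21, with Python 3.11.15 and biopython 1.88.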

Additional observations from a re-analysis of the deposited data

How the results depend on the processing

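With no filter, limma called 0 of all genes, 0 light chain genes and 0 heavy chains, with 1207, 5 and 2 at an unadjusted p under 0.05 among 30598 genes. With a pseudocount of 5 the heart median log2 fold change was 4.64, and 12 genes and 3 light chain genes were called. The other alternatives that kept all 6 samples gave 18 to 25 genes and 3 or 4 light chain genes. With each sample left out in turn, limma called 0 to 20 genes (17 with 6 samples), 0 to 4 light chain genes (3) and 0 to 2 heavy chains (2). The heart median stayed between 5.29 and 6.13, the skeletal one between 0.11 and 0.64, and the heart share of light chain TPM in Tmem216-/- between 33.8% and 45.4%. The log2 fold change of Mylpf ran from -0.30 to 0.26 and that of Myl6b from -0.12 to 0.16. Over 16 alternatives Myl7 passed in 12, Myl2 and Myl3 in 11, Myl4 in 5 and Myl9 in 1 (the sex covariate). With the replicate block, 25 genes and 4 light chain genes (Myl4 added) passed. The labels share replicate numbers. Same-numbered samples deviated with correlations from -0.09 to 0.10, and 1 of 3 wild type samples correlated best with its own number. With 3 samples per group this cannot decide whether the numbers pair the samples, and the main fit used no pairing. With unknown depth, no counting error can be given for levels of a few TPM.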
